A study of Mus musculus with 4 samples.

Results

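The chitinase-like genes Chil3 and Chil4, the resistin-like genes Retnla and Retnlg and the eosinophil-type ribonuclease gene Rnase2a (older name Ear11) were followed in mouse macrophages. They were chosen by gene symbol, as the 5 listed genes, and a value was taken from every probe set that names only that gene. Of these 5 genes, 4 had such a probe set, each exactly 1, among 18193 genes on the array. Retnlg had none in the annotation used here and was not analysed. All 4 measured genes reached the level floor of 6.39 (log2, the median of all values) on at least 1 array. Chil4 did so on only 1, the array of cells labelled Dap12-KO with IL-4, where its value was highest.

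The cells were thioglycolate-elicited macrophages, drawn into the peritoneal cavity by a sterile irritant, and were kept for 18 hours on slides. The 4 groups were macrophages labelled Dap12-KO with interleukin-4 (IL-4), labelled Dap12-KO untreated, wild type (WT) with IL-4 and WT untreated, with 1 array per group. The labels give no strain, age, sex, IL-4 dose or number of mice, and the design text calls the loss of DAP12 a knockdown where the sample titles say KO. The stated question was how loss of DAP12, an adaptor that passes signals from partner receptors through an ITAM motif, changes macrophage expression at rest and with IL-4. With 1 array per group no difference between 2 arrays has a replicate check, and such differences are given without a test.

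IL-4 binds a receptor whose Janus kinases phosphorylate STAT6, which enters the nucleus and binds a TTC-spacer-GAA element at many promoters. Macrophages switched in this way are called alternatively activated, and secreted products of chitinase-like and resistin-like genes are among their textbook markers in the mouse. Chitinase-like proteins have the fold of glycosyl hydrolases that digest chitin but not their activity, resistin-like proteins are small cysteine-rich secreted proteins, and eosinophil-associated ribonucleases are a rodent branch of the RNase A family.

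All values are deposited log2 values unless another scaling is named. The interquartile range of all probe sets was 2.54 log2 units on the Dap12-KO-labelled IL-4 array, against 3.19 to 3.25 on the other 3 arrays, so bright probe sets read lower and dim ones higher there. The median gene differed by -0.40 between both arrays labelled Dap12-KO and by -0.03 between both WT arrays. The members' differences that use that first array are therefore also given after cyclic loess and quantile normalization, which bring the arrays closer to each other. Tyrobp, which encodes DAP12, read 13.27 and 14.03 on the IL-4 and untreated arrays labelled Dap12-KO, against 14.13 and 14.39 on the WT IL-4 and untreated arrays. Its signal therefore does not bear out the label, although where its probes lie relative to the deleted part is not known, and each genotype direction below rests on the label alone. Macrophage markers were at or above the floor on all 4 arrays for 8 of the 8 measured genes of 9 listed.

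Chil3 (Ym1), a secreted lectin-like protein that is among the most abundant products of alternatively activated mouse macrophages, was bright on every array. It read 13.93 with IL-4 and 10.85 untreated on the arrays labelled Dap12-KO, and 14.33 with IL-4 and 11.95 untreated in WT. Both IL-4 arrays lay above both untreated arrays, and the untreated array labelled Dap12-KO was the lowest of the 4. The IL-4 difference was 3.09 on the arrays labelled Dap12-KO, an 8.49-fold higher signal and rank 9 of 12767 genes, and 2.38 in WT, 5.21-fold and rank 23. The first of these was 3.57 after cyclic loess and 3.49 after quantile normalization. In RNA from whole cultures, fewer cells that express a gene and less of its RNA per cell cannot be told apart.

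Chil4 (Ym2), the close paralog next to Chil3, was dim. Its only probe set read 6.67 with IL-4 and 5.47 untreated on the arrays labelled Dap12-KO, and 6.09 with IL-4 and 5.03 untreated in WT. The order of arrays was IL-4 above untreated in both genotypes, but 3 of the 4 values lay below the floor. Its IL-4 differences of 1.20 and 1.07 therefore rest on readings near background. After cyclic loess the difference on the arrays labelled Dap12-KO was 0.95, below 2-fold, and that in WT was 1.10. After quantile normalization these were 1.10 and 1.11.

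A further probe set is annotated to both Chil3 and Chil4 and is not counted as a member of either. It read 14.24 with IL-4 and 9.30 untreated on the arrays labelled Dap12-KO, and 14.23 with IL-4 and 10.50 untreated in WT. Its IL-4 differences, 4.94 and 3.74, exceeded those of the probe set that names Chil3 only, 3.09 and 2.38. Both probe sets agreed in the order of the 2 untreated arrays, with the one labelled Dap12-KO lower. Transcripts of near-identical paralogs can bind the same probes, so how much of any of the 3 signals came from Chil3 and how much from Chil4 is uncertain.

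Retnla, which encodes RELM-alpha (FIZZ1), a secreted protein induced in macrophages during worm infection, was bright without IL-4 as well. It read 12.62 with IL-4 and 11.34 untreated on the arrays labelled Dap12-KO, and 12.54 with IL-4 and 11.89 untreated in WT. The IL-4 difference was 1.29 on the arrays labelled Dap12-KO (2.44-fold) and 0.66 in WT (1.58-fold), where it stayed below 2-fold. The difference on the arrays labelled Dap12-KO was 1.82 after cyclic loess and 1.76 after quantile normalization. As deposited the 2 IL-4 arrays lay closer together than the 2 untreated arrays, but this order did not hold on either other scaling. Retnlg, its neighbour in the genome and known from neutrophils and bone marrow, has no value here.

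Rnase2a, an eosinophil-associated ribonuclease, had the largest IL-4 difference of the 4 measured members in either genotype. It read 10.98 with IL-4 and 6.23 untreated on the arrays labelled Dap12-KO, and 9.83 with IL-4 and 5.54 untreated in WT. Both untreated values lay below the floor, and both IL-4 values lay above the upper quartile of their array. The differences of 4.75 (rank 2 of 12767) and 4.29 (rank 3) correspond to 27.0-fold and 19.5-fold, but the lower end of each is a reading below the floor, so their sizes are uncertain. The first was 5.31 after cyclic loess and 5.16 after quantile normalization.

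**Figure D1:**
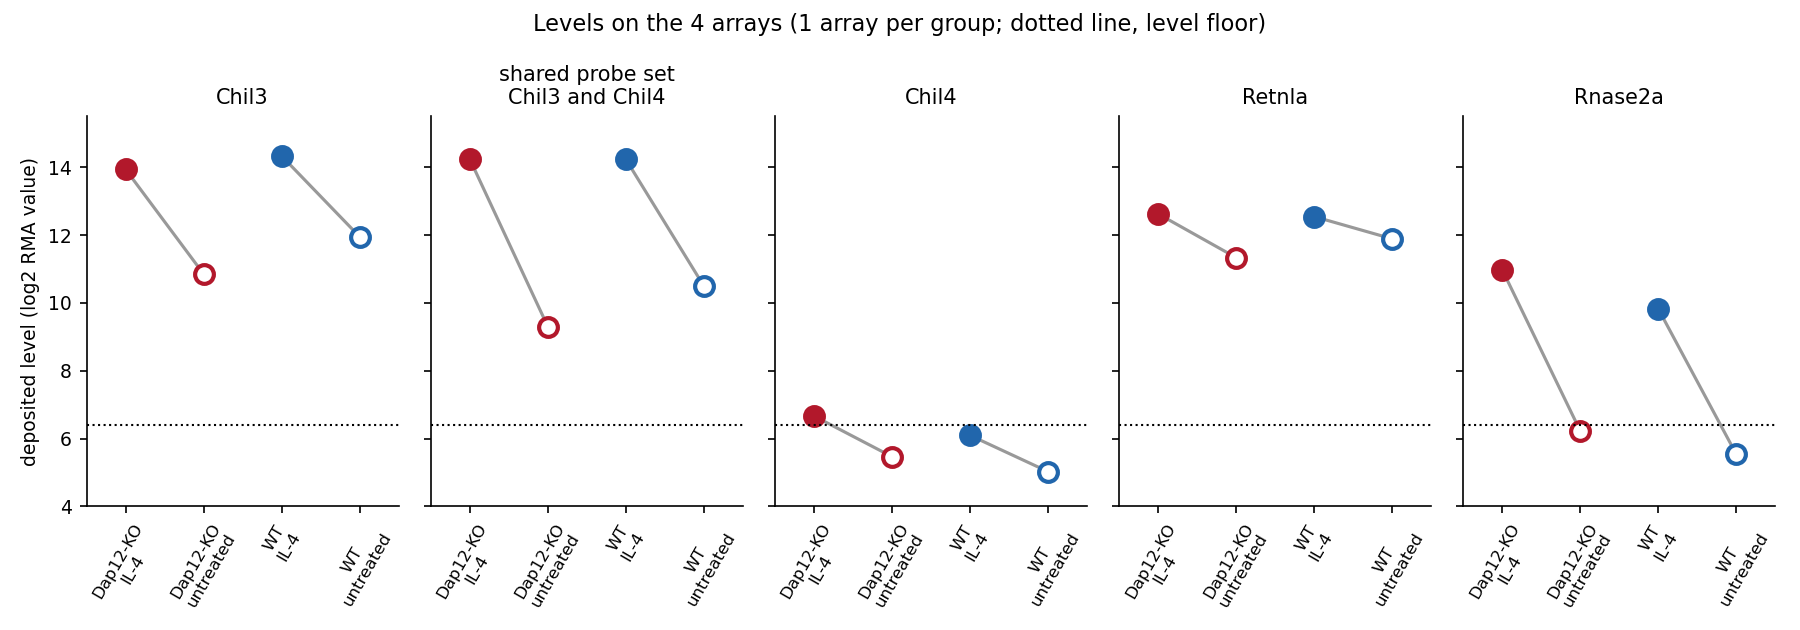
Deposited log2 level (y axis) of Chil3, the probe set shared by Chil3 and Chil4, Chil4, Retnla and Rnase2a on the 4 arrays (x axis, 1 point per array, filled with IL-4, open untreated, red labelled Dap12-KO, blue WT). Grey lines join the arrays of a genotype and the dotted line is the level floor of 6.39; in every panel the IL-4 point lies above the untreated point of its genotype, and Rnase2a starts below the floor in both.

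The promoters of the 4 measured genes are shown because all 4 levels were higher with IL-4 in both genotypes, and the element STAT6 is known to bind can be looked for in them. Each is the 250 bases before the annotated start, from RefSeq, build GRCm38.p6, read 5′ to 3′ on the gene's strand: Chil3 at chr3:106167565-106167814 (minus strand), Chil4 at chr3:106219480-106219729 (minus), Retnla at chr16:48842359-48842608 (plus) and Rnase2a at chr14:51256113-51256362 (minus). Capitals mark matches, on either strand, to TTCNNNNGAA or TTCNNNGAA, which are STAT-type letters and read alike on both strands, and to the C/EBP-type letters TTNNGNAA.
Chil3: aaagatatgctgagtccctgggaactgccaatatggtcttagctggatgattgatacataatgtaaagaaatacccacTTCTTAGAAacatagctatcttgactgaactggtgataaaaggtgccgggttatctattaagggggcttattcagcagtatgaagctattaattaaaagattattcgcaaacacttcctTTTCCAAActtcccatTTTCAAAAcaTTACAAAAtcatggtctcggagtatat
Chil4: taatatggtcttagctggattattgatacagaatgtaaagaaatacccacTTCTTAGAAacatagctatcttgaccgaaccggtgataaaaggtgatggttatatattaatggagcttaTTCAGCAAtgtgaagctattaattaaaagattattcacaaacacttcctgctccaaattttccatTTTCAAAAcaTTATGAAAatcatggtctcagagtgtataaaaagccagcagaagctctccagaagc
Retnla: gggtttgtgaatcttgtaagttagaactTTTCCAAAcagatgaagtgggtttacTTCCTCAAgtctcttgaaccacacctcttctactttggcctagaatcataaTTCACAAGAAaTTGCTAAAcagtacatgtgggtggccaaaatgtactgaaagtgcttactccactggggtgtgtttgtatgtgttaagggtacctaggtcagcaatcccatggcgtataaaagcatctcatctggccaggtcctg
Rnase2a: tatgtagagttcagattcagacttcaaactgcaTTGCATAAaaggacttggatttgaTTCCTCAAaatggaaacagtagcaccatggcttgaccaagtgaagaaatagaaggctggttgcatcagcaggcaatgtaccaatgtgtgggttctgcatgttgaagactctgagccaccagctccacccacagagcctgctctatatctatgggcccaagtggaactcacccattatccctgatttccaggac

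Retnla held TTCACAAGAA, a match to TTCNNNNGAA, at positions -145 to -136 relative to its start, and 5.85% of 32851 RefSeq promoter windows of this length held such a match. A C/EBP-type match lay just downstream of it, separated by 1 base, and did not overlap it. The window of the unmeasured Retnlg held TTCACAGGAA, also a TTCNNNNGAA match, at -72 to -63, and the Retnla and Retnlg windows were identical at 138 of 175 aligned bases (78.9%). Chil3 and Chil4 both held TTCTTAGAA, a match to TTCNNNGAA, which 7.02% of windows held, at -172 to -164 in Chil3 and -200 to -192 in Chil4. Their windows were identical at 201 of 221 aligned bases (91%), so the shared element is not an independent observation for each. No STAT-type letters lay in the Rnase2a window, which says nothing of sites elsewhere. C/EBP-type matches, present in 36.8% of windows, numbered 3 each in Chil3, Chil4 and Retnla and 2 in Rnase2a. A match of letters is a description and not a shown binding site.

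At 2-fold or more, 4 of the 4 measured members were higher with IL-4 on the arrays labelled Dap12-KO, where 8.04% of 12767 genes were. In WT, 3 of 4 were higher, where 1.21% of genes were, and Retnla was the exception. The members' median IL-4 difference was 2.19 on the arrays labelled Dap12-KO, against -0.40 for all genes, and 1.73 in WT, against -0.03. None of the 4 was lower with IL-4 in either genotype, where 17.6% and 1.25% of all genes were. Chil4 and Rnase2a passed the floor only through arrays with IL-4, on which they were high, so these counts and medians are a description and support nothing.

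Taking the 2 genotypes as the replicates of IL-4, a limma fit with genotype as a term left 1 residual degree of freedom. It called 69 genes higher (0.54%) and 141 lower (1.1%) at an adjusted p under 0.05. Rnase2a rose by 4.52 ± 0.42 (SE, adjusted p = 4.03e-23, limma) and Chil3 rose by 2.73 ± 0.42 (adjusted p = 8.70e-08, limma). The mean differences of Chil4, 1.13, and Retnla, 0.97, did not pass (adjusted p = 0.204 and 0.349, limma). Rnase2a and Chil4 entered this fit only through arrays with IL-4, on which they were high, so their p-values are a description and support nothing. Without a floor the adjusted p of Rnase2a was 0.0598 and that of Chil3 0.171 (limma). As deposited, limma took the spread wholly from all 12767 genes together and not from a gene's own 1 degree of freedom. Since all genes were thus given 1 common standard error, a gene's p depended on its mean difference and not on how alike its 2 responses were. With cyclic loess the limma calls numbered 0, although 814 genes had an unadjusted p under 0.05, and the adjusted p of Rnase2a was 0.195 and that of Chil3 0.292. With quantile normalization the limma calls also numbered 0, although 597 genes had an unadjusted p under 0.05, and these adjusted p were 0.636 and 0.678. The 1 residual of the fit is the difference between the 2 genotypes' IL-4 responses. The spread behind these p-values is therefore that difference and not a spread of replicates. Nothing in the labels says that the arrays came from separate mice, so part of it may be technical.

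**Figure D2:**
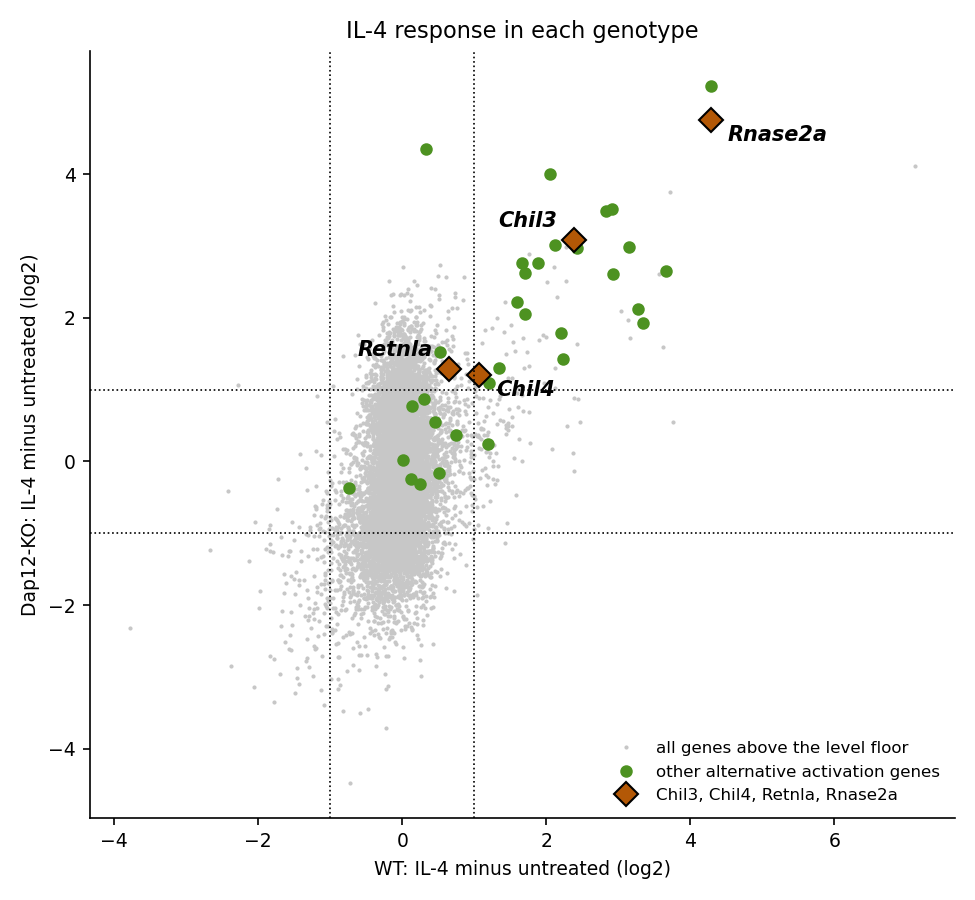
IL-4 minus untreated (log2) in WT on the x axis and on the arrays labelled Dap12-KO on the y axis for 12767 genes (grey), 32 other alternative activation genes (green) and the 4 measured members (orange diamonds), with dotted lines at 2-fold. Rnase2a lies at 4.29 and 4.75, Chil3 at 2.38 and 3.09, and Chil4 and Retnla near the 2-fold lines.

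Without IL-4, Chil3 was 2-fold lower or more on the array labelled Dap12-KO than in WT. The genotype differences, Dap12-KO minus WT, were -1.10 for Chil3, -0.55 for Retnla, 0.44 for Chil4 and 0.69 for Rnase2a. Thus 1 of 4 members was at least 2-fold lower and 0 higher, where 3.41% and 3.12% of all genes were. The direction of Chil3 was the same on the probe set it shares with Chil4, at -1.20, and after cyclic loess, at -1.02. Retnla and Chil3 were lower and the 2 dim readings, Chil4 and Rnase2a, higher on the array labelled Dap12-KO, with both dim readings below the floor on both untreated arrays.

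With IL-4, Rnase2a was 2.22-fold higher on the array labelled Dap12-KO than in WT. The genotype differences with IL-4 were 1.15 for Rnase2a, 0.57 for Chil4, 0.08 for Retnla and -0.40 for Chil3. At 2-fold 1 of 4 members was higher and 0 lower, where 10.9% and 17.6% of all genes were. For Rnase2a the difference was 1.75 after cyclic loess and 1.76 after quantile normalization. For Retnla it was 0.66 and 0.60 on these scalings, larger in size than its untreated differences of -0.46 and -0.49 there, and for Chil4 0.29 and 0.45. The sign for Chil3 turned with the scaling, to 0.13 and 0.02, and its probe set shared with Chil4 differed by 0.00 as deposited. The median of all genes was -0.39 in this comparison, close to the deposited value of Chil3.

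Each member's IL-4 difference was larger on the arrays labelled Dap12-KO than in WT as deposited, by 0.70 for Chil3, 0.63 for Retnla, 0.47 for Rnase2a and 0.13 for Chil4. None of the 4 reached 2-fold, where 8.15% of all genes did upwards and 14.8% downwards. After cyclic loess the differences were 1.15 for Chil3, 1.13 for Retnla and 0.98 for Rnase2a, and after quantile normalization 1.06, 1.09 and 1.10. On these scalings 2 and 3 members passed 2-fold upwards, where 9% and 11.5% of all genes did. Chil4 turned to -0.15 after cyclic loess. With 4 arrays the difference of responses leaves no degree of freedom and was not tested. It shares its untreated and IL-4 arrays with the comparisons above, and for Chil3 and Retnla the untreated values of the arrays labelled Dap12-KO were also the lower ones.

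**Figure D3:**
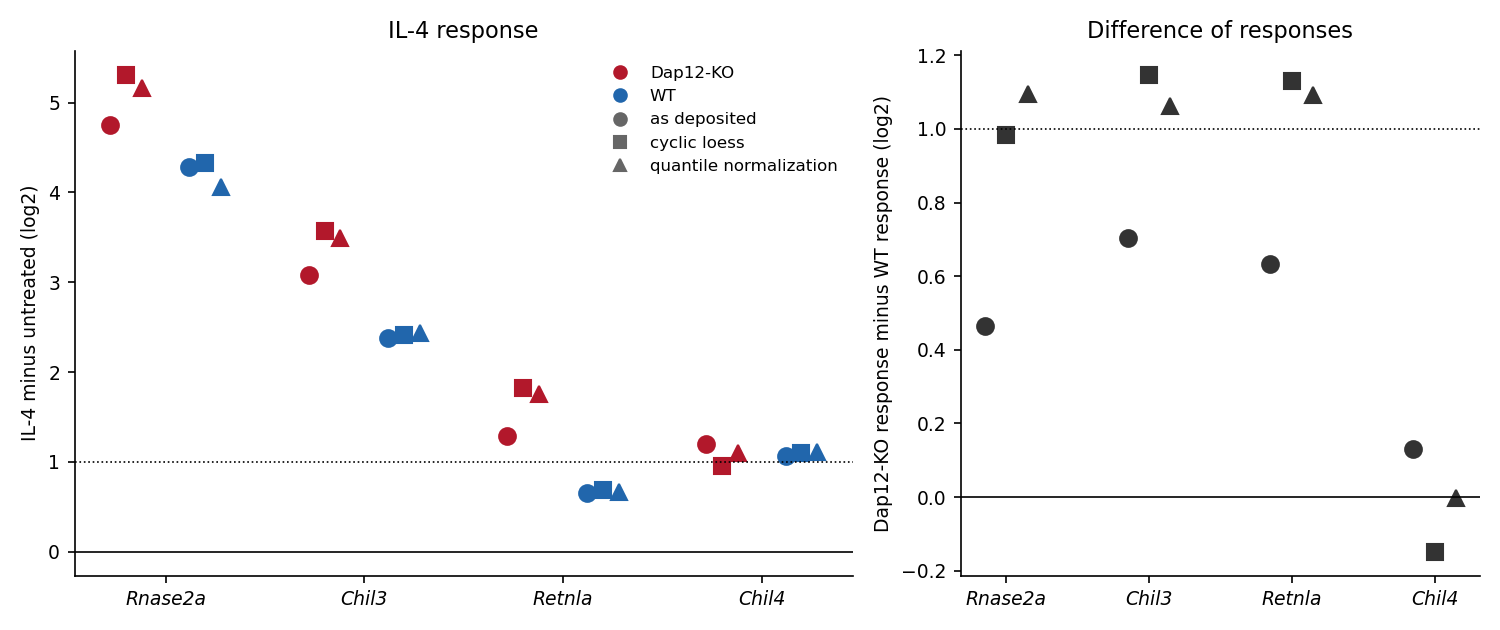
Left, IL-4 minus untreated (log2) for Rnase2a, Chil3, Retnla and Chil4 on the arrays labelled Dap12-KO (red) and in WT (blue), as deposited (circles), after cyclic loess (squares) and after quantile normalization (triangles); right, the Dap12-KO response minus the WT response on the same scalings. Dotted lines mark 2-fold. The WT responses move little with the scaling, most for Rnase2a, from 4.29 to 4.06 after quantile normalization. On both other scalings 3 of the 4 Dap12-KO responses are larger and that of Chil4 is smaller.

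In WT none of the measured relatives above the floor reached 2-fold with IL-4, but few of all genes did. Of the chitinase family, whose other measured genes include the active chitinases Chia1 and Chit1, 6 further genes were measured and 3 reached the floor. In WT 0 of these 3 were 2-fold higher or lower with IL-4, where 1.21% and 1.25% of all genes were. Their median difference in WT was 0.02. On the arrays labelled Dap12-KO 0 were higher and 1 lower, where 8.04% and 17.6% of all genes were. Chit1 read 7.11 with IL-4 and 6.39 untreated on the arrays labelled Dap12-KO, and 6.07 and 6.05 in WT. Chia1, which lies next to Chil3 on the other side from Chil4 in the RefSeq order, stayed between 5.45 and 5.85 on all 4 arrays, below the floor. The lysosomal enzyme Ctbs differed by -1.18 on the arrays labelled Dap12-KO as deposited, but by -0.51 after cyclic loess.

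Of the resistin family, Retn, which encodes resistin, a hormone of mouse fat cells, read 7.58 with IL-4 and 6.92 untreated on the arrays labelled Dap12-KO, and 6.60 and 6.99 in WT. Its IL-4 differences of 0.66 and -0.39 had opposite signs, and neither reached 2-fold. Retnlb, the RELM-beta gene of gut goblet cells and the other neighbour of Retnla, stayed between 4.94 and 5.35 on all 4 arrays, below the floor.

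Of 19 further listed genes of the RNase A family 8 were measured and 5 reached the floor. In WT 0 of these 5 were 2-fold higher or lower with IL-4, where 1.21% and 1.25% of all genes were. With the Dap12-KO label 2 were higher and 1 lower, where 8.04% and 17.6% of all genes were. The Ear genes on the list, named as Rnase2a once was, had no probe set naming only them and so no value. Whether their transcripts also bind the probes of Rnase2a was not tested. Rnase2b, the gene most like Rnase2a by name and separated from it by 2 coding genes in the RefSeq order, stayed between 4.85 and 5.22, below the floor. On the arrays labelled Dap12-KO, Ang2, an angiogenin, was higher with IL-4 by 2.35 (2.11 after cyclic loess and 2.75 after quantile normalization), with 8.19 against 5.84, and read 5.18 and 5.11 on the WT arrays. Rnase1, the pancreatic-type ribonuclease, was higher there by 1.25, stayed past 2-fold on both of these scalings, and read 7.00, above the floor on that array alone. Ang, another angiogenin, was lower with IL-4 by a difference of -1.26 as deposited and of -0.65 after cyclic loess. Without IL-4 Rnase4 read 10.35 on the array labelled Dap12-KO, against 8.17 in WT. A probe set named Ear3 in the platform annotation, picked after its values were seen, read 7.20 with IL-4 and 7.02 untreated on the arrays labelled Dap12-KO, and 7.30 and 6.57 in WT.

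**Figure D4:**
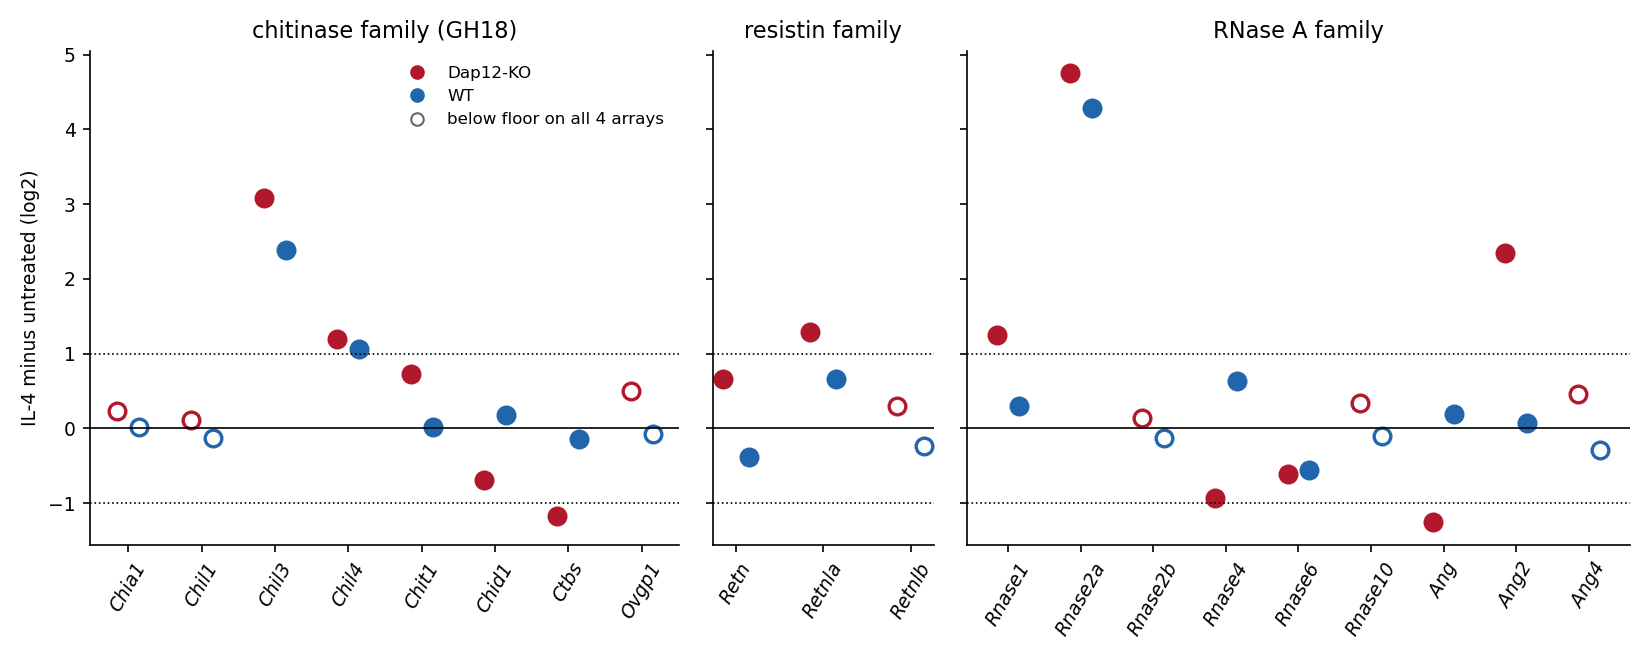
IL-4 minus untreated (log2, y axis) on the arrays labelled Dap12-KO (red) and in WT (blue) for each measured gene of the chitinase, resistin and RNase A families; open circles are genes below the floor on all 4 arrays and dotted lines mark 2-fold. In WT the points past 2-fold are Chil3, Chil4 and Rnase2a, and on the arrays labelled Dap12-KO they are those 3, Retnla, Rnase1 and Ang2 upwards and Ctbs and Ang downwards.

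Other genes known from alternative activation were higher with IL-4 as well. Of 32 such genes above the floor, 22 were at least 2-fold higher with IL-4 and 0 lower on the arrays labelled Dap12-KO. Of all genes 8.04% were higher there and 17.6% lower. The median difference of the 32 was 1.99. After cyclic loess and after quantile normalization 25 were higher, where 9.95% and 12% of all genes were. In WT 21 were higher and 0 lower, where 1.21% and 1.25% of all genes were. The median of the 32 in WT was 1.69. In the limma fit over both genotypes 19 of the 32 rose and 0 fell, where 0.54% and 1.1% of all genes did. Among these genes Arg1, the enzyme that cleaves arginine, differed by 1.93 on the arrays labelled Dap12-KO and 3.35 in WT, and the mannose receptor Mrc1 by 1.79 and 2.21. Both were bright on the Dap12-KO-labelled IL-4 array, at 14.37 and 13.26, where bright probe sets read lower. In which genotype they differed more is therefore uncertain. Untreated, 13 of the 32 were at least 2-fold lower on the array labelled Dap12-KO than in WT, as Chil3 was, and 2 were higher. Of all genes 3.41% were lower and 3.12% higher. The median of the 32 was -0.42, against 0.03 for all genes. Several of these genes are known from earlier results of these arrays, so the list is no independent evidence of direction.

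Genes that carry the IL-4 signal, like most genes, stayed within 2-fold with IL-4 in WT. Of 11 receptor and STAT6 pathway genes above the floor, 0 were 2-fold higher or lower there, where 1.21% and 1.25% of all genes were. Stat6 itself read 10.55 with IL-4 and 11.58 untreated on the arrays labelled Dap12-KO, and 10.88 and 11.23 in WT. Lower on the arrays labelled Dap12-KO with IL-4 were 4 of the 11 as deposited and 0 after cyclic loess. Of all genes 17.6% and 6.07% were lower there. Higher were 0 and 2 of the 11, where 8.04% and 9.95% of all genes were. Of 12 factors known at promoters of alternative activation genes, Irf4 was the 1 that was 2-fold higher in WT, by 1.71. In that comparison 1.21% of all genes were higher. Irf4 was higher by 2.63 on the arrays labelled Dap12-KO. Klf4 was higher by 1.53 on the arrays labelled Dap12-KO and by 0.53 in WT. Cebpb, a C/EBP factor, differed by -0.05 on the arrays labelled Dap12-KO and by -0.23 in WT. The first of these turned to 0.50 after cyclic loess and 0.44 after quantile normalization.

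Markers of other cells that can express these genes were set beside them. Of 9 eosinophil markers 8 were measured. Of these 4 reached the floor on the Dap12-KO-labelled IL-4 array and 2 on each of the other arrays. The median of all probe sets was 6.48 on that first array, above the floor, against 6.33 to 6.37 on the others. Dim markers therefore reached the floor more easily there. The granule protein gene Prg2 stayed between 4.86 and 5.13 and the eosinophil peroxidase gene Epx read 6.48 and 5.63 on the IL-4 and untreated arrays labelled Dap12-KO, against 5.09 and 5.15 in WT. Summed on the linear scale without Alox15, which macrophages express too, the list came to 448 with IL-4 and 393 untreated on the arrays labelled Dap12-KO, and to 473 and 409 in WT. Single markers differed in direction with IL-4 on the arrays labelled Dap12-KO, with Siglecf at -0.60, Epx at 0.85 and Prg3 at 0.81. Epx and Prg3 were dim, at 6.48 and 6.71 on the IL-4 array, where dim probe sets read higher. The part of eosinophils in the Rnase2a signal was not tested.

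Neutrophils can express Chil3, and 13 of 14 neutrophil markers were measured. Their summed linear signal was 4312 with IL-4 and 4278 untreated on the arrays labelled Dap12-KO, against 8846 and 8921 in WT. That gap was carried by Mmp9, also a macrophage gene. Without Mmp9 the sums were 3982 and 3969 on the arrays labelled Dap12-KO and 3546 and 3067 in WT. Without Csf3r as well, which macrophages express too and which was left out after its values were seen, they were 1407 and 1620 on the arrays labelled Dap12-KO and 1709 and 2248 in WT. The direction between the untreated arrays thus depended on these 2 genes. Single neutrophil markers differed in direction between the untreated arrays. S100a8 and Mmp8 read 9.52 and 8.55 with the Dap12-KO label, against 10.09 and 9.42 in WT. Csf3r, Cxcr2, Elane and Camp went the other way, with differences of 1.52, 0.31, 0.20 and 0.18, Dap12-KO minus WT. Of the 9 neutrophil markers that reached the floor, 1 was at least 2-fold higher and 1 lower in this comparison. Their median difference was -0.05. The part of these cells in the Chil3 difference was not tested.

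The genes whose 4 values ran closest to a member's were found by the Euclidean distance between log2 profiles over the 4 arrays, each centred on its own mean. For Chil3 they were Rab3il1 (distance 0.42), the cytokine signal inhibitor Cish (0.43) and the cationic amino acid transporter Slc7a2 (0.56). For Rnase2a they were the chemokine Ccl7 (1.49), Tmem26 (1.72) and the lectin Mgl2 (2.06), so that even the nearest gene lay farther from Rnase2a than the nearest genes of the other members lay from those. For Retnla they were 5830432E09Rik (0.14), Cfap45 (0.20) and Prps1 (0.23), and for Chil4 Flnc (0.20), Pxdc1 (0.25) and Ier3 (0.25). Small profiles lie close to many others, so the shorter distances of Retnla and Chil4 go with their smaller differences. Between members the distance was 0.80 for Chil4 and Retnla, 1.83 for Chil3 and Retnla and 2.05 for Chil3 and Chil4, and from 2.45 to 3.73 for pairs with Rnase2a.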

How the data were processed

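Total RNA of 4 peritoneal macrophage samples was measured on 1-colour Affymetrix arrays after 2 amplification cycles, per the labels' protocols. The values deposited by the authors are log2 and come from RMA (version not given), per the submitters' processing notes. They hold no counts, so the number of arrays limits the precision. Amplification favours the 3' ends of transcripts. Samples were grouped by title.

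Probe sets were named from GEO's platform annotation, updated through Entrez identifiers to RefSeq (34741 of 34945 probe sets with 1 gene matched). The probe set with the highest mean stood for a gene, which left 12767 genes with a value at or above the floor of 6.39 on at least 1 array. Log2 differences were computed for 5 comparisons and called at 2-fold. The IL-4 effect was tested in R 4.3.3 by lmFit and eBayes of limma 3.58.1, with Benjamini-Hochberg adjustment over all genes. The fit was also run on simulated data with the same spread for every gene and no narrower array. That run therefore cannot show how the fit behaves on these arrays. Other steps used Python 3.11.15, numpy 2.4.6 and pandas 2.3.3. Promoters came from RefSeq, GRCm38.p6.

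The members and lists were chosen with earlier results of these data known. Named were all members, Tyrobp, genes of the lists and the 3 nearest profiles per member. The alternatives were cyclic loess (3 iterations), quantile normalization, each array's median subtracted, all probe sets singly or their median per gene, no floor, a floor at the 75th percentile, 3-fold, no genotype term and an intensity trend. Probe-level files were not used here.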

Additional observations from a re-analysis of the deposited data

Results flagged for a closer look

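Rnase4, a ribonuclease of the same family that was not among the genes followed, moved in opposite directions with IL-4, by at least 1.5-fold in each genotype. Its difference was -0.93 on the arrays labelled Dap12-KO, with 9.42 against 10.35 untreated, and 0.63 in WT, with 8.80 against 8.17. The difference between the genotypes was not tested. After cyclic loess the 2 values were -0.26 and 0.67.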

How the results depend on the processing

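The genotype term of the limma fit pairs the IL-4 and untreated arrays of a genotype. No further pairing was possible because the labels number no replicates. No array could be left out because 3 arrays leave no residual degree of freedom. Over cyclic loess, quantile normalization and median centring, 52 of 60 values of the 4 measured genes kept their side of 2-fold and moved by less than 1.5-fold, and 54 kept their sign; the median over probe sets moved none, since each gene has 1 probe set. Those that moved were the IL-4 difference of Chil4 on the arrays labelled Dap12-KO (0.95, cyclic loess), the genotype difference of Rnase2a with IL-4 (1.75 with cyclic loess, 1.76 with quantile normalization) and the difference of responses of Chil3 (1.15 and 1.06), Retnla (1.13 and 1.09) and Rnase2a (1.10, quantile normalization). Members with a response at least 2-fold higher on the arrays labelled Dap12-KO then numbered 2 with cyclic loess and 3 with quantile normalization, where 9% and 11.5% of all genes were. At 3-fold, 2 members were higher with IL-4 on the arrays labelled Dap12-KO and 0 differed between genotypes. Percentages of all genes moved as well. With IL-4 on the arrays labelled Dap12-KO, 8.04% higher became 4.22% with the stricter floor and 1.9% at 3-fold, and 17.6% lower became 6.07% with cyclic loess, 8.79% with quantile normalization and 4.45% at 3-fold. In WT the 3-fold values were 0.478% higher and 0.243% lower. Between genotypes with IL-4, higher genes were 4.03% with the stricter floor and 3.57% at 3-fold, and lower genes 5.51%, 7.93% and 4.15% with cyclic loess, quantile normalization and 3-fold. Untreated, 0.713% were higher and 1.08% lower at 3-fold. For the difference of responses, higher genes were 3.53% with the stricter floor and 1.67% at 3-fold, and lower genes 5.75%, 7.94% and 3.52% in the same order as above. The limma calls depended most on the setting. The adjusted p of Chil3 was 0.292 with cyclic loess, 0.678 with quantile normalization, 0.0896 without the genotype term and 0.171 without a floor, and that of Rnase2a 0.195, 0.636, 0.00287 and 0.0598. The limma fit called 0 genes with cyclic loess, with quantile normalization and without a floor (962 at an unadjusted p under 0.05), 7 higher and 0 lower without the genotype term, and 47 higher and 71 lower with the intensity trend. The causes were not tested. Signal near the floor limits Chil4 and the untreated values of Rnase2a.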
